A study of Mus musculus with 16 samples.

Results

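The translation initiation and elongation factors measured here are the genes whose names in the array annotation start with Eif or Eef followed by a digit. They were found by name alone, in the rows of the array files that hold no control spot. The rule itself uses no measured value, but it was chosen with earlier results of these data known. The array carried 136 such probes for 59 genes, out of 41174 probes for 27962 gene names in all. Of these genes, 41 had more than 1 probe. Tests were kept to probes that the scanner software scored as well above background in cord on 3 or 4 arrays of some group, which left 116 probes at 40 days, 114 at 80 days and 117 over all 16 arrays. The 117 probes belonged to 58 genes. Of the 19 probes left out, 12 were above background on 0 arrays, and Eif2b3, a subunit of the exchange factor eIF2B, was the 1 gene with no tested probe.

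RNA came from whole lumbar spinal cord of mice on the B6SJL background, in 4 groups of 4 arrays. The SOD1G93A animals carry a mutant human SOD1 transgene and are a model of amyotrophic lateral sclerosis, and the controls are their non-transgenic (NonTg, wild-type) counterparts. Both genotypes were taken at 40 days and at 80 days, ages that precede symptoms in this line, and received no drug. By the study's methods all animals were male, 5 animals entered each group and 4 arrays per group were kept, so each array stands for an animal as far as these sources say. The transgene is present in every cell of the animal, so motor neurons and glia alike carry it, and a whole-cord extract mixes them. Every array also carried a reference, RNA pooled from neonatal heart, kidney and liver of NonTg and SOD1G93A mice. Cord RNA was always labelled with Cy3 and the reference with Cy5. All values are log2 ratios of cord to reference, so that a difference of 1 between groups is a doubling, and a change is the SOD1G93A mean minus the wild-type mean unless an age comparison is named.

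Protein synthesis starts when the cap-binding complex eIF4F and the scaffold eIF3 bring the small ribosomal subunit, loaded with initiator tRNA by the GTP-binding factor eIF2, to an mRNA. The factors eIF1, eIF1A and eIF5 select the start codon, and eIF5B joins the large subunit. In elongation, eEF1A delivers each aminoacyl-tRNA and eEF2 moves the ribosome along the message, while the kinase eEF2K switches eEF2 off and 4 kinases of eIF2 alpha switch initiation down under stress. Neurons are known to replace eEF1A1 with its paralog eEF1A2 after birth. The name rule also caught Eif2c1 to Eif2c4, the older names of the Argonautes Ago1 to Ago4, which bind small RNAs and are not translation factors in the strict sense, and the older Eif3s names of the eIF3 subunits, which are given below by their present letters.

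A few of the array's 60-base probes are printed here. Their sequences are shown because probes on 3 separate stretches of Eef2 were all called higher at 80 days, by 0.19 to 0.52, while for Eef1a1, Eif4a1, Eif4g2 and Eif5b only the probe shown was called between genotypes and the gene's other tested probes were not. Eef1a2, with a single probe that was not called at either age, is shown as the paralog of Eef1a1. Called probes of other genes, such as Eif3s1 and Eif5, are not shown. Positions are those of the array annotation on build mm7, and no exon or UTR annotation of that build was used here. The Eef2 probes lie on the plus strand of chromosome 10, at chr10:80969687-80969746, at chr10:80972062-80972196 (the span is longer than 60 bases, so the match is split) and at chr10:80973051-80973110. The Eef1a1 probe lies on the minus strand at chr9:78556409-78556468, the Eef1a2 probe on the minus strand at chr2:181650634-181650693, the Eif4a1 probe on the minus strand at chr11:69750105-69750259, the Eif4g2 probe on the minus strand at chr7:106989868-106989927 and the Eif5b probe on the plus strand at chr1:38274522-38275452.
Eef2 A_52_P605455: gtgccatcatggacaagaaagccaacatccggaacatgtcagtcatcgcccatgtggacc
Eef2 A_52_P318631: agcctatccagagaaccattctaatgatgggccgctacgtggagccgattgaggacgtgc
Eef2 A_52_P81562: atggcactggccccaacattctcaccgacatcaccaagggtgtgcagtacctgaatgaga
Eef1a1 A_52_P299505: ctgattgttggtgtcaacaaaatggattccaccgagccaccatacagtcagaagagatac
Eef1a2 A_51_P485862: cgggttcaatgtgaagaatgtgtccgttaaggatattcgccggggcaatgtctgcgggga
Eif4a1 A_52_P541826: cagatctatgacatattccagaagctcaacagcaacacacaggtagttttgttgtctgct
Eif4g2 A_52_P460526: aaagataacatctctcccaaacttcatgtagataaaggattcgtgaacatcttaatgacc
Eif5b A_51_P479659: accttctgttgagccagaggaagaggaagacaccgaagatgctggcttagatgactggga

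Between 46.1% and 55.3% of probes were above background in the cord channel, and between 57.1% and 70% in the reference channel. Slide k held replicate k of all 4 groups, and each group kept the same position on every slide, so an effect of position cannot be told apart from one of the group. The cord label held: the neurofilament gene Nefl and the astrocyte gene Gfap were both far above the reference, although the 2 Chat probes were above background on 1 and 0 arrays, and motor neurons were represented by the cholinergic genes Slc5a7 and Slc18a3 and by Isl1. Markers of Schwann cells and skeletal muscle varied most between arrays, with median deviations of -1.28 to 1.74 and of -0.74 to 2.49. Mouse Sod1 probes had genotype changes of -0.17 to 0.11, and they are no check of the genotype labels, since the transgene is human. In whole cord, fewer cells of a type and less RNA per cell cannot be told apart. By limma, 0 probes of the whole array passed an adjusted p under 0.05 between genotypes, while 953 at 40 days and 1481 at 80 days had a nominal p under 0.05. A call below therefore means a two-sided nominal limma p under 0.05, and its background is the share of all tested probes called the same way. The same nominal threshold was used in the study's methods. Beside limma's p stands the exact p of a two-sided permutation of the 8 arrays, which cannot go below 0.0286 with 4 against 4, and for a difference between the ages that of 4900 relabellings of all 16 arrays.

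Against the neonatal organs, the cord had high ratios of Eef1a2, Eif5a2, Eif4a2 and Eif1b, while the paralogs of these genes had ratios near or below 0. This is a description over all 16 arrays with the brightest tested probe of each gene and has no test, since dyes were never exchanged and the zero of the scale depends on the centring. Of the 58 genes, 18 were above the reference on all 16 arrays, 28 were below it on all 16 and 12 were found on both sides. The side depended on the probe for some genes. For example, Eif1ax had a mean of -0.98 on its brightest probe but 0.33 (0.14 to 0.45) on A_52_P145237. Eif2s3x had 0.09 and, on A_51_P305532, -1 (-1.15 to -0.81), and Eef1d had -0.15 and, on A_51_P449886, 0.79 (0.43 to 1.27). The mean exceeded 1 for 4 genes. They were Eef1a2 at 2.72 (range 2.35 to 3.02), Eif5a2 at 2.42 (1.94 to 2.89), Eif4a2 at 2.34 (2.23 to 2.53) and Eif1b at 1.60 (1.46 to 1.72). Their paralogs Eef1a1, Eif5a, Eif4a1 and Eif1 had means of -1.77, 0.09, -0.56 and -0.31. These pairs encode the tRNA carrier eEF1A, the hypusine-carrying factor eIF5A, the RNA helicase eIF4A and the start codon factor eIF1. The scaffold genes Eif4g1 and Eif4g3 were both above the reference, at 0.54 and 0.91. Farthest below it was Eif4ebp1, an inhibitor that sequesters the cap-binding protein, at -3.93 (-4.21 to -3.54). Eif3e (-1.55), the Y-linked eIF2 gamma gene Eif2s3y (-1.39) and Eif4e2, a cap-binding homolog (-1.30), were also lower by more than 1.

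**Figure D1:**
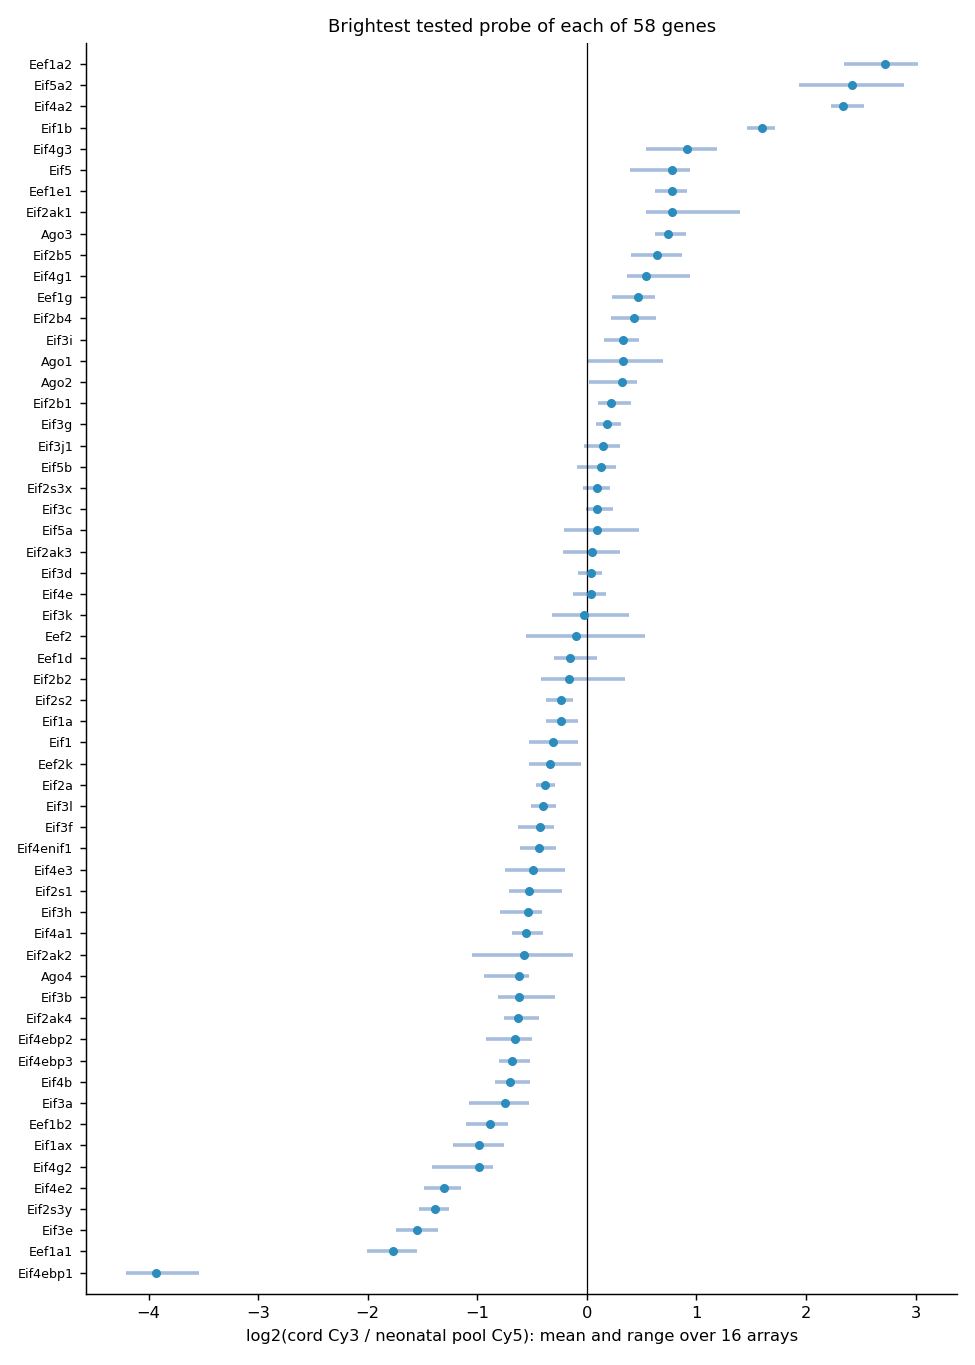
Mean log2 ratio of cord to the neonatal organ reference for the brightest tested probe of each of 58 genes (point), with its range over all 16 arrays (line). Eef1a2, Eif5a2, Eif4a2 and Eif1b lie above 1, Eif4ebp1 lies far below the others at -3.93, and most ranges are narrow beside the spread between genes.

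Within these levels the arrays differed little. The range of a tested probe over the 16 arrays had a median of 0.41 (0.17 to 1.33), and its SD within a group had a median of 0.095. The X-linked and Y-linked genes of the eIF2 gamma subunit, which binds the initiator tRNA and GTP, were both on the array. Eif2s3y was measured at -1.27, -1.27, -1.32 and -1.39 in wild-type and at -1.50, -1.38, -1.52 and -1.28 in SOD1G93A cord at 40 days. At 80 days its values were -1.31, -1.48, -1.26 and -1.53 in wild-type and -1.42, -1.45, -1.47 and -1.39 in SOD1G93A. These groups overlapped at both ages, with changes of -0.11 (limma p = 0.143, exact p = 0.2) and -0.04 (limma p = 0.638, exact p = 0.571). The 3 tested Eif2s3x probes had changes of -0.09 to 0.16 at 40 days and of -0.16 to 0.02 at 80 days, and 0 of them were called at either age.

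At 40 days probes of Eif4a1, Eif4g2 and Ago3 were lower in SOD1G93A cord than in wild-type, and probes of 6 other genes were higher. Higher values were called for 6 of 116 probes, against a background of 2.44% of all probes, and lower values for 3, against 2.03%. The median change over the 116 probes was 0.02, beside 0.00 over the array, and 65 of them were higher. The smallest adjusted p of a member was 0.998. The groups did not overlap for 6 of 116 probes (5.17%), 4 of them higher, against 2.83% of all probes. The 9 called probes belonged to 9 genes that each had further tested probes, and for 0 of these genes was a second probe called. With only the brightest probe of each gene, 2 of 58 were higher and 0 lower.

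The decrease with the smallest p at 40 days was in Eif4a1, which encodes the helicase that unwinds the 5' end of the message within eIF4F. Its probe A_52_P541826 was at -0.68, -0.37, -0.70 and -0.20 in wild-type and at -0.77, -0.88, -0.96 and -0.87 in SOD1G93A cord. Every transgenic array was below every wild-type array, and lower on 4 of 4 slides. The change was -0.38 ± 0.11 (SE, n = 4 per group; limma p = 0.00581, exact permutation p = 0.0286, the smallest that 4 against 4 allows). The other 2 Eif4a1 probes had changes of 0.02 and -0.06, and neither was called. Eif4g2, an eIF4G relative that lacks the cap-binding part and serves cap-independent initiation, was at -0.94, -0.96, -0.83 and -0.99 in wild-type and at -1.02, -1.0, -1.12 and -1.16 in SOD1G93A (A_52_P460526). Again the groups stood apart, by -0.14 ± 0.06 (SE; limma p = 0.0412, exact permutation p = 0.0286). The remaining Eif4g2 probes had changes of -0.06 and 0.03.

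Another member of this group went the other way. Eif4b, the cofactor that stimulates the eIF4A helicase, was at -0.75, -0.84, -0.73 and -0.73 in wild-type and at -0.58, -0.52, -0.66 and -0.69 in SOD1G93A (A_52_P269365). All transgenic arrays were higher, by 0.15 ± 0.06 (SE; limma p = 0.023, exact p = 0.0286). In all, 1 of the 23 tested probes of the eIF4F group was called higher and 2 lower, against 2.44% and 2.03% of all probes. The cap-binding protein gene Eif4e and the large scaffolds Eif4g1 and Eif4g3 had no called probe.

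Among the eIF3 subunits, which form the platform on the small ribosomal subunit, 2 of 21 probes were called higher and 0 lower. The background was 2.44% higher and 2.03% lower. Eif3a, the largest subunit, was at -0.04, -0.05, 0.15 and -0.08 in wild-type and at 0.19, 0.16, 0.13 and 0.21 in SOD1G93A (A_51_P229280), a change of 0.18 (limma p = 0.0163, exact p = 0.0571). A single wild-type array reached into the transgenic range. Eif3c, a core subunit, also rose by 0.18 on probe A_52_P18807 (limma p = 0.0228, exact p = 0.0571), while its other 4 probes had changes of 0.01 to 0.10. Eif5, which makes eIF2 hydrolyse GTP at the start codon, rose by 0.14 on A_52_P533304 (limma p = 0.0473, exact p = 0.0571). The kinase gene Eef2k was at 0.04, 0.16, 0.12 and -0.02 in wild-type and at 0.26, 0.20, 0.22 and 0.20 in SOD1G93A (A_52_P590661). Its groups were separate, with a change of 0.15 (limma p = 0.0246, exact p = 0.0286), but its second probe was at -0.04.

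For the Argonautes the 2 calls at 40 days pointed in opposite directions. Ago2, the member that cuts its targets, was at 0.19, 0.19, 0.21 and 0.16 in wild-type and at 0.23, 0.31, 0.29 and 0.40 in SOD1G93A (A_52_P101221), a rise of 0.12 without overlap (limma p = 0.0461, exact p = 0.0286). Ago3 fell by 0.21 on A_52_P556266 (limma p = 0.0386, exact p = 0.0857), with wild-type values of 0.47, 0.78, 0.41 and 0.73 against 0.43, 0.43, 0.31 and 0.39. That difference turned positive, to 0.26, when arrays were not normalised within themselves. The probe was above background in the reference on only 6 of 16 arrays, and the brighter Ago3 probe, A_52_P126513, had a change of -0.01. Among the 6 probes with the smallest p, leaving out single arrays ended the calls of Ago3, Eif3c, Eif4b and Eef2k in part of the cases. The authors' processed table ended the calls of all of them. Those of Eif4g2, Eif5 and Ago2 were not followed in this way. With the slide as a block, which compares arrays of the same slide, 5 of the 9 calls were kept. Those of Eif4g2, Eif4b, Ago2 and Eif5 were lost, with limma p values of 0.0617, 0.0541, 0.0844 and 0.0554, and probes of Ago1 and Eif5 (A_52_P336080) came under the threshold. No probe was called at 40 days among the 7 of the eIF2 alpha kinases, the 13 of eIF2 and eIF2B, the 6 of the 4E-binding proteins, the 4 of eIF5A and the 10 of elongation factor 1.

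Markers of several cell types also differed on the same arrays at 40 days. All 11 astrocyte probes were higher in SOD1G93A, 3 of them called, and the median deviation of the list per array ran from -0.17 to 0.07 in wild-type and from 0.02 to 0.21 in SOD1G93A. All 11 oligodendrocyte probes were also higher, 3 called, with -0.23 to 0.19 in wild-type and 0.10 to 0.29 in SOD1G93A. Neuronal markers were higher on 10 of 12 probes and microglial markers on 6 of 10, with 0 called in either list. Skeletal muscle markers were higher on 4 of 4 probes (median change 0.82) and Schwann cell markers on 0 of 4 (median change -0.96), again with 0 called. The 117 translation factor probes together had per-array medians of -0.04 to 0.03 and of 0.00 to 0.01. Whether the content of these cells had a part in the single calls was not tested.

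**Figure D2:**
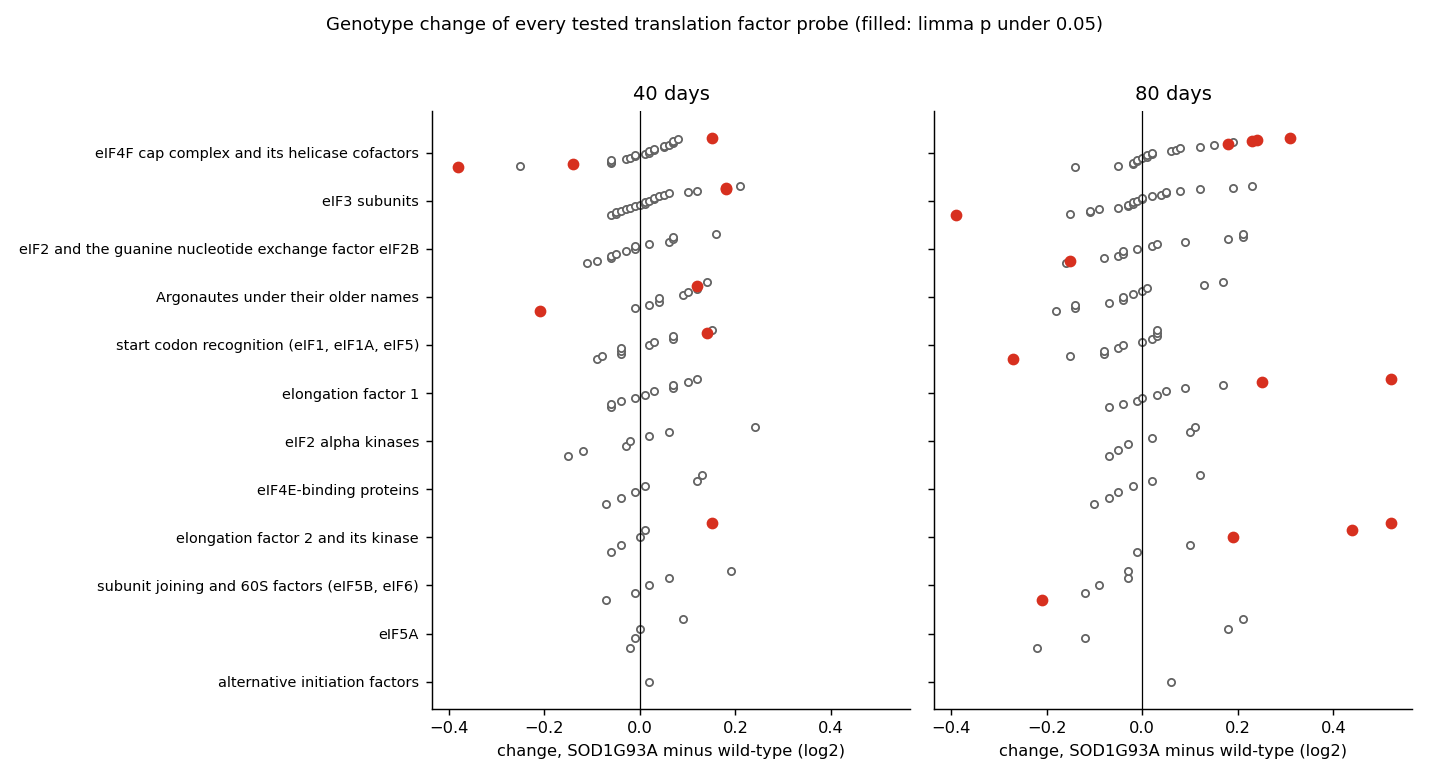
Change between SOD1G93A and wild-type cord (horizontal axis, log2) of every tested probe at 40 days (left, 116 probes) and 80 days (right, 114 probes), in rows by role; filled points have a limma p under 0.05. At 80 days 3 of the 5 probes of elongation factor 2 and its kinase stand to the right, 4 called eIF4F probes and 2 called probes of elongation factor 1 also stand to the right of 0, and each other row has at most 1 called probe at that age. Of all tested probes of the array, 3.74% were called higher at 80 days.

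At 80 days elongation factor 2 was higher in SOD1G93A cord on all 3 of its probes, and Eef1a1 and Eef1d rose on 1 probe each, while Eif3s1, Eif5, Eif5b and Eif2s2 each fell on 1 probe. In all, 9 of 114 probes were called higher, against a background of 3.74%, and 4 lower, against 3.12%. The median change was 0.00, as over the whole array, and 57 of the 114 were higher. The groups did not overlap for 8 of 113 probes measured on all arrays (7.08%), 5 of them higher, against 4.31% of all probes. The smallest adjusted p of a member was 0.654. Calls fell on 11 genes, all with several tested probes, and Eef2 was the 1 gene with a second called probe. With only the brightest probe of each gene, 1 of 58 was higher and 1 lower, or 3.45%, beside 6.86% of all probes.

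Eef2 encodes the GTPase that translocates the ribosome by a codon. Its probe A_52_P81562 was at 0.07, -0.46, 0.01 and -0.27 in wild-type and at 0.19, 0.28, 0.53 and 0.12 in SOD1G93A. The second probe, A_52_P318631, was at 0.44, -0.16, 0.37 and 0.09 in wild-type and at 0.46, 0.62, 1.17 and 0.57 in SOD1G93A. The third, A_52_P605455, was at -0.01, 0.03, 0.02 and 0.02 in wild-type and at 0.23, 0.14, 0.26 and 0.18 in SOD1G93A. On each probe all 4 transgenic arrays were above all 4 wild-type arrays, and SOD1G93A was higher on 4 of 4 slides. The wild-type spread differed between the probes, with SDs of 0.25, 0.27 and 0.017.

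The changes were 0.44 ± 0.13 (1.36-fold; limma p = 0.00584), 0.52 ± 0.17 (1.43-fold; limma p = 0.012) and 0.19 ± 0.055 (1.14-fold; limma p = 0.00702), with SE and n = 4 per group, and the exact permutation p was 0.0286 for each. All 3 sequences are from the same message and the same 8 RNA samples, so they are not 3 independent measurements of the genotype. Transgenic replicate 3 held the highest value of all 16 arrays on each of them, and each call remained without it. The call of A_52_P605455 was lost, at 0.10, without normalization within arrays. For the kinase gene Eef2k, 0 of 2 probes were called at this age, at 0.10 and -0.01.

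The eEF1A genes differed from one another in their probes. Eef1a1 on A_52_P299505 was at -1.33, -1.80, -0.93 and -1.53 in wild-type and at -1.10, -0.97, -0.57 and -0.88 in SOD1G93A. One wild-type array lay inside the transgenic range, although SOD1G93A was higher on 4 of 4 slides. The change was 0.52 ± 0.17 (SE; 1.43-fold; limma p = 0.0131), and the exact permutation p was 0.0857. A second, brighter probe of the gene, A_51_P118765, was at a change of 0.09 (limma p = 0.43, exact p = 0.514). Eef1a1 has many processed copies in the genome, so which transcripts each probe binds is uncertain.

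Its paralog Eef1a2, the form of mature neurons and muscle, was at 2.90, 2.73, 2.65 and 2.68 in wild-type and at 2.94, 2.94, 3.02 and 2.71 in SOD1G93A. The highest 3 of these 8 values were transgenic, but the groups overlapped, and a change of 0.17 did not pass (limma p = 0.0723, exact p = 0.0857). Skeletal muscle markers, from a tissue that also uses Eef1a2, ran from -0.65 to 0.95 in wild-type and from -0.70 to 1.22 in SOD1G93A at 80 days, and their part in this gene's values was not tested. Eef1d, a subunit of the complex that recharges eEF1A with GTP, was at 1.06, 0.70, 0.65 and 0.68 in wild-type and at 1.00, 0.96, 1.27 and 0.88 in SOD1G93A on probe A_51_P449886. Here the wild-type array of replicate 1 stood within the transgenic range, and the change was 0.25 (limma p = 0.045, exact p = 0.114). Its remaining probes had changes of 0.03 and -0.07. The called Eef1d probe is dim, above background in the reference on only 3 of 16 arrays. For Eef1b2 and Eef1g, further subunits of that complex, and Eef1e1, a scaffold of the tRNA synthetase complex, 0 probes were called, with changes of -0.04 to 0.05.

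**Figure D3:**
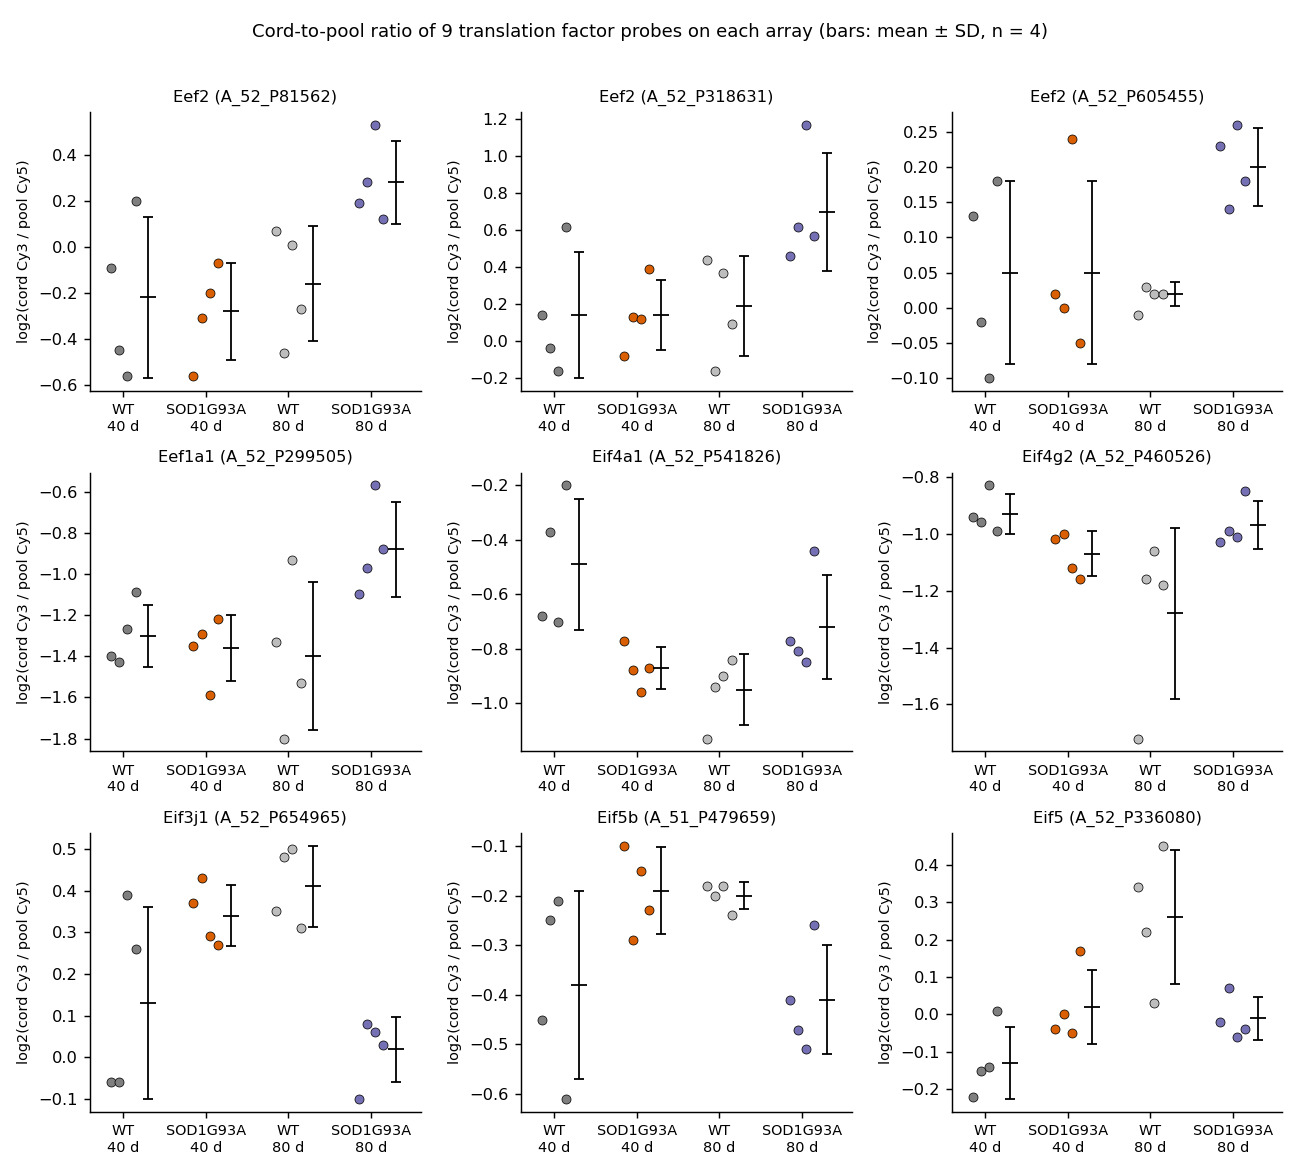
Log2 ratio of cord to reference on each array for 9 probes (points, replicates 1 to 4 from left to right in each group), with the mean and SD of each group of 4 arrays beside them; vertical axes differ between panels. The 3 Eef2 panels and the Eef1a1 panel have their highest mean in SOD1G93A at 80 days, in the Eif3s1 panel (titled Eif3j1) the SOD1G93A arrays at 80 days lie below all wild-type arrays of that age, and in the Eif4a1 panel the SOD1G93A arrays lie below wild-type at 40 days.

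In the eIF4F group 4 of 21 probes were called higher at 80 days and 0 lower, against 3.74% and 3.12% of all probes. With only the brightest probe of each gene, 0 of 9 genes of this group were called. Eif4g2 on A_52_P460526, lower in transgenic cord at 40 days, was at -1.72, -1.16, -1.06 and -1.18 in wild-type and at -1.03, -0.99, -1.01 and -0.85 in SOD1G93A at 80 days. The groups did not overlap, and the change was 0.31 ± 0.13 (SE; limma p = 0.0364, exact permutation p = 0.0286). Eif4a1 on A_52_P541826 was at -1.13, -0.94, -0.90 and -0.84 in wild-type and at -0.77, -0.81, -0.85 and -0.44 in SOD1G93A, higher on 4 of 4 slides, by 0.23 ± 0.10 (SE; limma p = 0.0413, exact p = 0.0571).

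Both are the probes that were called lower at 40 days, and their other probes stayed uncalled, at -0.01 and 0.15 for Eif4g2 and at 0.00 and -0.02 for Eif4a1. Eif4b on A_51_P151271 rose by 0.24 (limma p = 0.0196, exact p = 0.0857), with wild-type values of -0.50, -0.58, -0.35 and -0.65 against -0.41, -0.26, -0.11 and -0.36. This is not the Eif4b probe called at 40 days, which was at -0.01 at 80 days. The neuronal helicase gene Eif4a2 rose by 0.18 on A_52_P344376 (limma p = 0.0495, exact p = 0.114), and its brighter probe was at 0.02.

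The decrease with the smallest p was on a probe of Eif3s1, a loosely bound eIF3 subunit now called Eif3j. Its accession leads to Eif3j1, but the annotation places its 3 probes on chromosome 18, and a near-identical copy, Eif3j2, exists, so which of them was measured is uncertain. Probe A_52_P654965 was at 0.35, 0.48, 0.50 and 0.31 in wild-type and at -0.10, 0.08, 0.06 and 0.03 in SOD1G93A. The transgenic arrays were all lower, on 4 of 4 slides, and the change was -0.39 ± 0.069 (SE; limma p = 0.000208, exact permutation p = 0.0286). The other probes of the name had changes of 0.05 and -0.02. It was the single call among the 21 eIF3 probes at this age.

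Eif5b and Eif5 fell as well. Eif5b, the GTPase of subunit joining, was at -0.18, -0.20, -0.18 and -0.24 in wild-type and at -0.41, -0.47, -0.51 and -0.26 in SOD1G93A on A_51_P479659. Every transgenic value was below every wild-type value, the closest at -0.26 and -0.24, and the change was -0.21 ± 0.067 (SE; limma p = 0.00904, exact permutation p = 0.0286). Without normalization within arrays this call was lost, at -0.13. The remaining 4 Eif5b probes were lower without a call, at -0.12 to -0.03. Eif5 was at 0.34, 0.22, 0.03 and 0.45 in wild-type and at -0.02, 0.07, -0.06 and -0.04 in SOD1G93A on A_52_P336080. A single wild-type array overlapped the transgenic range, and the change was -0.27 ± 0.088 (SE; limma p = 0.0114, exact permutation p = 0.0571). The call was lost from the cord channel alone, at -0.18, and in the authors' processed table, at -0.17. Eif2s2, the beta subunit of eIF2 that Eif5 contacts, was at -0.21, -0.14, -0.17 and -0.15 in wild-type and at -0.21, -0.34, -0.34 and -0.37 in SOD1G93A (A_52_P107354), a change of -0.15 (limma p = 0.0336, exact p = 0.0571). Its other tested probe, A_51_P470724, was at 0.09 (limma p = 0.493, exact p = 0.514). With the slide as a block 11 of the 13 calls at 80 days were kept, those of Eif2s2 and Eif4a2 were lost, and probes of Eif5a and Eif2b2 came under the threshold.

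No probe of the eIF2 alpha kinases, the 4E-binding proteins or the Argonautes was called at 80 days. The 6 tested probes of the eIF2 alpha kinases (Eif2ak1 to Eif2ak4, which sense heme, double-stranded RNA, endoplasmic reticulum stress and amino acid shortage) had changes of -0.07 to 0.11. The 6 probes of the 4E-binding proteins had changes of -0.10 to 0.12, and the 11 probes of the Argonautes of -0.18 to 0.17. Microglial markers were higher in SOD1G93A for 8 of 10 probes, 0 of them called, and the median deviation per array ran from -0.12 to 0.51 in wild-type and from -0.12 to 0.82 in SOD1G93A. Oligodendrocyte markers were higher for 9 of 11 probes, 2 called, and astrocyte markers for 4 of 11, with 1 called lower. Their part in the translation factor calls was not tested.

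**Figure D4:**
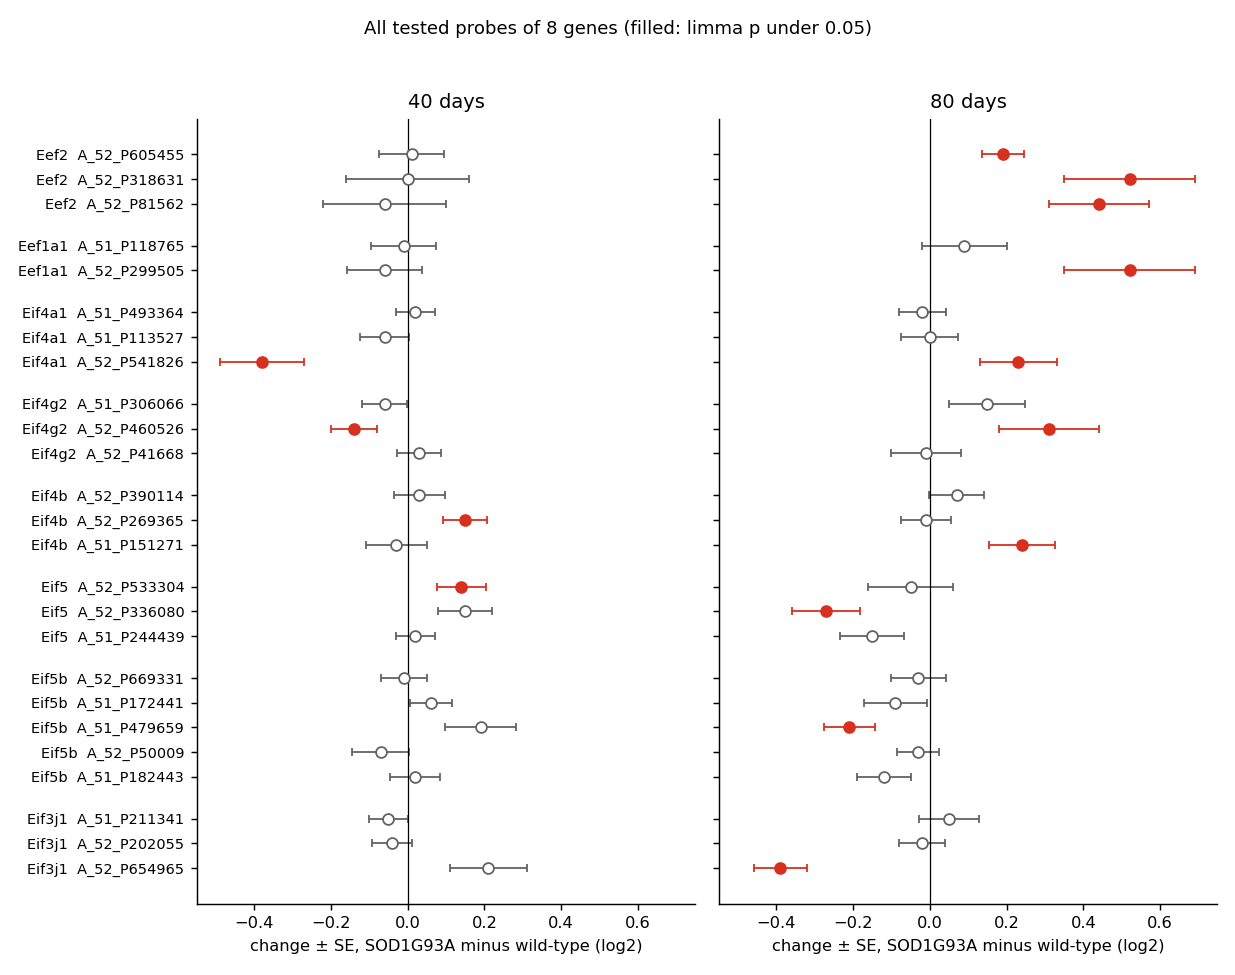
Change between SOD1G93A and wild-type cord with its SE (horizontal axis, log2) for each tested probe of 8 genes at 40 days (left) and 80 days (right); filled points have a limma p under 0.05 and Eif3j1 stands for the Eif3s1 probes. All 3 Eef2 probes are called at 80 days, whereas each of the other 7 genes has at most 1 called probe at an age.

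The genotype change itself differed between the ages for 11 of 117 probes, tested as the interaction of genotype and age on all 16 arrays. It was higher at 80 days for 6 probes, against a background of 3.11%, and lower for 5, against 3.57%. The smallest adjusted p was 0.496, and the 11 probes belonged to 11 genes with 0 of them called on a second probe. The probes with the smallest p values had changes of opposite sign at the ages. Eif3s1 on A_52_P654965 was at -0.06, -0.06, 0.39 and 0.26 in wild-type and at 0.37, 0.43, 0.29 and 0.27 in SOD1G93A at 40 days, a change of 0.21 that was not called (limma p = 0.0684, exact p = 0.143). Against the decrease at 80 days this made a difference of -0.60 ± 0.13 (SE; limma p = 0.000243), with an exact permutation p of 0.00204. The 40-day change passed the threshold in 7 of 21 other settings, among them the authors' processed table.

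For Eif4a1 the difference was 0.62 ± 0.16 (limma p = 0.00117, exact permutation p = 0.000816). For Eif4g2 it was 0.45 ± 0.15 (limma p = 0.00838, exact permutation p = 0.000408, the smallest these relabellings allow). Both genotype changes moved from lower at 40 days to higher at 80 days. On the same probes wild-type cord fell with age, by 0.47 and 0.35, while neither probe was called between the ages in SOD1G93A cord. The genotype changes of Eif5 and Eif5b moved the other way. Eif5 on A_52_P336080 was at -0.22, -0.15, -0.14 and 0.01 in wild-type and at -0.04, 0.00, -0.05 and 0.17 in SOD1G93A at 40 days, and the difference between the ages was -0.42 (limma p = 0.00213, exact p = 0.00408). Eif5b on A_51_P479659 was at -0.45, -0.25, -0.21 and -0.61 in wild-type and at -0.10, -0.29, -0.15 and -0.23 in SOD1G93A at 40 days, with a difference of -0.40 (limma p = 0.00301, exact p = 0.0049). In both genes the 40-day groups overlapped and the 40-day changes, 0.15 and 0.19, were not called. The 40-day change of Eif5b passed the threshold in 4 of 21 other settings, among them the authors' processed table.

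For the elongation factors the ages differed on part of the probes. Eef1a1 on A_52_P299505 was at -1.40, -1.43, -1.27 and -1.09 in wild-type and at -1.35, -1.29, -1.59 and -1.22 in SOD1G93A at 40 days, and the groups overlapped. The change grew by 0.58 from 40 to 80 days (limma p = 0.0157, exact permutation p = 0.0453). Eef2 on A_52_P81562 was at -0.09, -0.45, -0.56 and 0.20 in wild-type and at -0.56, -0.31, -0.20 and -0.07 in SOD1G93A at 40 days. Its difference was 0.50 (limma p = 0.0399, exact permutation p = 0.0833), while the other Eef2 probes, at 0.52 (limma p = 0.0566) and 0.18 (limma p = 0.0924), did not pass. Their 40-day changes were 0.00 and 0.01. So the rise of Eef2 at 80 days was called different from 40 days on 1 of 3 probes. That call had an exact p above 0.05 and did not pass adjustment (limma adjusted p = 0.741).

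Age alone was read within each genotype, with 16 arrays sharing 1 estimate of the spread. In wild-type cord 6 of 117 probes were higher at 80 than at 40 days, against 6.77% of all probes, and 9 were lower, against 8.29%. An adjusted p under 0.05 was reached by 2 of them, against 1.58% of the array. Eif5 on A_52_P336080 rose by 0.39 without overlap (limma adjusted p = 0.0247), and Eif4a1 on A_52_P541826 fell by 0.47 (limma adjusted p = 0.045). These are the wild-type values that also enter the genotype changes above. The other 2 Eif4a1 probes had age changes of 0.00 and -0.08, and for Eif5 a second probe, A_51_P244439, rose by 0.20 (limma p = 0.00798, exact p = 0.0571). Eif4e2 fell by 0.18 on A_51_P266168 (limma p = 0.00398, exact p = 0.0286), and Eef1g rose by 0.23 on A_51_P401471 (limma p = 0.00562, exact p = 0.0571). Eif4g2 fell by 0.35 on A_52_P460526, the probe of its genotype calls and the only called one of its 3 tested probes. The Eif3s1 probes moved in opposite directions in wild-type cord. A_52_P654965 was called higher, at 0.28 (limma p = 0.00741, exact permutation p = 0.0857), and its 80-day values also enter the genotype decrease above. A_52_P202055 was called lower, at -0.17 (limma p = 0.00467, exact permutation p = 0.0286), and A_51_P211341 was not called, at -0.01.

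In SOD1G93A cord 27 probes were called between the ages, with probes of Eef2, Eef1a1 and Eif5a higher and probes of all 4 Argonaute genes lower at 80 days. Higher values were called for 14 of 117 probes, against 8.64%, and lower values for 13, against 8.28%, on 21 genes, and 6 of these had more than 1 called probe. None passed the adjusted threshold (0 probes, limma, smallest adjusted p = 0.0936), against 1.12% of the array. That smallest value belonged to Eif3s1 on A_52_P654965, called lower at -0.32 (limma p = 0.00258, exact permutation p = 0.0286). Eif3s1 on A_52_P202055 was called lower as well, at -0.15 (limma p = 0.00991, exact permutation p = 0.0286), and A_51_P211341 was not called, at 0.09. The 2 age comparisons share no array, but each shares its arrays with the genotype comparisons, and whether they differ is the interaction test given above. Elongation factors lay on the higher side, with 3 of 10 probes of elongation factor 1 and 3 of 5 of elongation factor 2 and its kinase called higher and 0 lower. Eef2 rose by 0.56 (limma p = 0.00273, exact p = 0.0286) and 0.57 (limma p = 0.00607, exact p = 0.0286) on A_52_P81562 and A_52_P318631, and the third probe was at 0.15 (limma p = 0.0531, exact p = 0.114). Eef1a1 rose by 0.48 on A_52_P299505 (limma p = 0.00587, exact p = 0.0286), Eef1a2 by 0.26 (limma p = 0.0254, exact p = 0.0571) and the kinase gene Eef2k by 0.23 on A_51_P461504 (limma p = 0.00451, exact p = 0.0286). The second Eef2k probe, A_52_P590661, was at -0.13 (limma p = 0.0801, exact p = 0.143), and the brighter Eef1a1 probe was at 0.10 (limma p = 0.359, exact p = 0.286).

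Both tested probes of Eif5a, whose product relieves stalled ribosomes, rose in SOD1G93A cord, by 0.28 (limma p = 0.0222, exact p = 0.0571) and 0.26 (limma p = 0.0191, exact p = 0.0286). At 40 days A_52_P48155 was at -0.11, -0.07, 0.06 and 0.11, and at 80 days it was at 0.17, 0.15, 0.50 and 0.21. All 80-day values were above the 40-day values. The other 2 tested eIF5A probes, those of the paralog Eif5a2, were lower at 80 days without a call, the lowest at -0.20. Among the eIF3 subunits 4 of 21 probes were called higher, which were both probes of Eif3b (0.18 and 0.28) and those of Eif3g (0.14) and Eif3k (0.24), and 3 lower. The background was 8.64% higher and 8.28% lower. With the slide as a block the calls of Eif3b and Eif3k were lost. Eif2b2, a subunit of the exchange factor for eIF2, rose by 0.33 (limma p = 0.00797, exact p = 0.0571).

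Argonautes lay on the lower side, with 6 of 11 probes called lower and 0 higher in SOD1G93A cord, in all 4 genes, against 8.28% of all probes called lower. In wild-type cord 1 of the 11 was called lower, against 8.29% of all probes. Ago1 on A_52_P97489 was at 0.63, 0.52, 0.55 and 0.31 at 40 days and at 0.24, 0.03, 0.01 and 0.27 at 80 days. The ages did not overlap, and the change was -0.36 (limma p = 0.00379, exact p = 0.0286). The difference from wild-type was called for this probe alone among the 11 (interaction -0.33, limma p = 0.0471, exact p = 0.0478), and it was lost with the slide as a block (limma p = 0.0582). Eif2ak2, the kinase that senses double-stranded RNA, fell by 0.41 (limma p = 0.0172, exact p = 0.0571) in SOD1G93A cord. Eif2ak3, the kinase of the endoplasmic reticulum, fell in both genotypes, by 0.20 (limma p = 0.0237, exact p = 0.114) in wild-type and by 0.22 (limma p = 0.0117, exact p = 0.0286) in SOD1G93A.

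A single array weighed on this comparison. SOD1G93A replicate 3 at 80 days held the highest value of all 16 arrays for 24 of 116 members and the lowest for 18, against 11.6% and 10.7% of all probes measured on every array. Without it, 15 of 117 probes were called between the ages in SOD1G93A cord in place of 27, while the share of all probes called went from 16.9% to 12.3%. Over the same ages microglial markers were higher on 9 of 10 probes in SOD1G93A cord, 2 of them called, and oligodendrocyte markers were lower on 10 of 11, 5 of them called lower and 1 called higher. In wild-type cord, too, microglial markers were higher on 9 of 10 probes, 0 called, and oligodendrocyte markers were lower on 9 of 11, 3 called. Astrocyte markers had 3 probes called higher and 1 lower in wild-type and 1 called higher and 3 lower in SOD1G93A. Their part in the age calls was not tested.

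Genes that act with these factors were called between genotypes in a share below that of the array at 40 days and near it at 80 days. The list held 41 genes with 76 probes, taken from a list of the cap and poly(A) tail partners, termination, the hypusine and diphthamide enzymes, selenocysteine insertion, mitochondrial factors, mTORC1 and MNK signalling and the eIF2 alpha phosphorylation response. At 40 days 0 of 61 tested probes were called higher and 1 lower, Dhps, the first enzyme that modifies eIF5A with hypusine, at -0.10 (limma p = 0.0486, exact p = 0.0286). That is 1.64% of the tested probes, beside 4.47% of the array. At 80 days 3 of 64 were higher and 2 lower, or 7.81% beside 6.86% of the array. Mknk1, a kinase of eIF4E, rose by 0.18 (limma p = 0.0401, exact p = 0.0571), as did Tsc1, an inhibitor of mTORC1 signalling, by 0.18 (limma p = 0.0326, exact p = 0.0857), and the mitochondrial elongation factor gene Tsfm by 0.15 (limma p = 0.035, exact p = 0.0286). Mcts1, which acts in re-initiation, fell by 0.17 (limma p = 0.0274, exact p = 0.0571), and the poly(A)-binding protein gene Pabpc4 fell by 0.14 (limma p = 0.0434, exact p = 0.0286). The genotype change differed between the ages for Tsc1 (0.26, limma p = 0.0351, exact p = 0.0412) and Tsfm (0.24, limma p = 0.008, exact p = 0.00408). No probe of the eIF2 alpha phosphorylation response, which holds Atf4, Ddit3, Asns, Trib3, Chac1 and both Ppp1r15 genes on the list, was called between genotypes at 40 days (0 of 7 tested) or at 80 days (0 of 6).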

How the data were processed

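Lumbar cord RNA of 16 mice was hybridised with a common reference on two-colour Agilent whole mouse genome arrays, and the authors deposited each array's scanner output with linear intensity per spot (Agilent Feature Extraction 9.5.3.1 per the labels). They also deposited a table of processed log2 values, which followed the cord channel (correlation 0.993 to 0.999 per array) and was normalised for each age apart; it served as an alternative. Its direction was settled by the scanner values, and whether its genes were centred further is unknown.

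Median signals were background-corrected by normexp (offset 50) in limma 3.58.1 under R 4.3.3. Spots more than 20 units below their local background first received the array's median background, since bright local backgrounds compressed 2 of the 40-day arrays. Those were wild-type replicate 3 and SOD1G93A replicate 4, with slopes of 0.811 and 0.808 on the other arrays of their age when such backgrounds were kept. SOD1G93A replicate 4 at 80 days had the most such Cy3 spots, 63, and was compressed less. Its slope was 0.902 with them kept and 0.968 after the step. Ratios of Cy3 to Cy5 were normalised by loess within and Aquantile between arrays, control and outlier spots were left out and spots of a probe were averaged. Probes well above background in Cy3 on 3 arrays of a group, and measured on 2 arrays of every group, were tested with lmFit and eBayes over all such probes, with Benjamini-Hochberg adjustment. Genotypes were compared on the 8 arrays of an age, and the interaction and ages on 16. Exact permutation tests used 70 splits of 4 against 4, or 4900 relabellings for the interaction. Scripts were tested on simulated data.

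Of the 136 probes, 107 were named by accession, 15 by symbol and 14 by synonym through RefSeq (GRCm38.p6, names only). Probes chosen to be followed were the 6 with the smallest p in each comparison, those of Eef2, Eif5b and Eif3s1, the eEF1A paralogs and the eIF2 gamma genes. Values of every array are printed for part of them, and other probes were named within their role. The members, lists and rules were chosen with earlier results of these data known. Replicate numbers coincided with slides, and the replicate block served as the slide block. Nothing tied same-numbered arrays to an animal or litter, and their deviations correlated between -0.066 and 0.198 for genotypes within an age and between -0.141 and 0.232 over all 24 pairs, the SOD1G93A arrays of both ages at 0.09, 0.152, 0.178 and 0.232, so the fits given have no block. Array data have no read depth, and 4 arrays per group limit the precision. Other normalisations, filters, the replicate block and leaving out each array were the alternatives.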

Additional observations from a re-analysis of the deposited data

Results flagged for a closer look

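Values are log2 ratios of cord to reference. In 6 of 144 groups of 4 arrays (36 probes), 1 array stood apart from the other 3 by Dixon's criterion, where chance alone gives about 1 in 20. Wild-type replicate 4 at 40 days had 1.08 for Eef1d on A_51_P449886, with the others between 0.45 and 0.51, and wild-type replicate 1 at 80 days had 1.06 on the same probe, with the others between 0.65 and 0.70. SOD1G93A replicate 3 at 80 days had 0.39 for Eif5 on A_52_P533304, with the others between 0.81 and 0.89. Wild-type replicate 2 at 40 days had -0.84 for Eif4b on A_52_P269365 (others -0.75 to -0.73), SOD1G93A replicate 2 at 40 days had -0.73 for Eif3s1 on A_51_P211341 (others -0.81 to -0.80), and wild-type replicate 1 at 80 days had -0.31 for Eif5b on A_52_P669331 (others -0.19 to -0.18).

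The genotype change differed between 40 and 80 days on 11 probes by limma's interaction test, none of which passed after adjustment over the array. It was higher at 80 days for Eif4a1 (0.62), Eef1a1 (0.58), Eef2 on A_52_P81562 (0.50), Eif4g2 (0.45), Eif4b on A_51_P151271 (0.27) and Eif4a2 on A_52_P344376 (0.23). It was lower at 80 days for Eif3s1 on A_52_P654965 (-0.60), Eif5 on A_52_P336080 (-0.42), Eif5b on A_51_P479659 (-0.40), Ago1 on A_52_P97489 (-0.33) and Eif2s3x on A_52_P314042 (-0.32). Position on the slide was fixed for each group, so that an effect of it on these differences cannot be told apart.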

How the results depend on the processing

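The number of called probes depended on the processing, and the share of all probes called, given after each number, moved with it. At 40 days 9 probes were called (4.47%), but 4 with bright local backgrounds kept (1.16%), 3 without normalization within arrays (3.76%) and 14 from the scanner's processed signals (7.57%). At 80 days 13 were called (6.86%), but 23 with array weights (11.1%). With 1 probe per gene 2 of 58 were called at each age, or 3.45%, beside 4.47% of all probes at 40 days and 6.86% at 80 days. The interaction gave 11 (6.68%), but 19 from processed signals (9.77%) and 17 with array weights (8.98%), and age in SOD1G93A cord gave 27 (16.9%), but 15 without normalization within arrays (11.3%) and 15 from the cord channel alone (12.1%). Leaving out 1 array gave 4 to 14 calls at 40 days (4 without wild-type replicate 2, SOD1G93A replicate 1 or SOD1G93A replicate 3, 5 without SOD1G93A replicate 2 and 14 without wild-type replicate 3) and 8 to 19 at 80 days (8 without wild-type replicate 2, 19 without SOD1G93A replicate 4). It gave 8 to 18 for the interaction (18 without SOD1G93A replicate 4 of 80 days), 11 to 19 for age in wild-type and 15 to 31 for age in SOD1G93A (15 without replicate 3 of 80 days and 17 without replicate 1 of 40 days). The share of all probes called then ran from 3.36% to 8.86% at 40 days and from 4.53% to 8.62% at 80 days. For the interaction this share ran from 5.44% to 8.17%, for age in wild-type from 12.1% to 15.9% and for age in SOD1G93A from 12.3% to 18.3%. The replicate block, which is also the block for slide, gave 7 calls at 40 days (4.49%) and 13 at 80 days (7.82%). It gave 10 for the interaction (6.85%), 13 for age in wild-type (15.6%) and 23 for age in SOD1G93A (16.7%). It kept 5 of 9, 11 of 13, 10 of 11, 13 of 15 and 23 of 27 calls in that order of comparisons.

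Over 31 called single values, 335 of 366 alternatives kept the direction and the call, 29 lost the call and 2 turned, both for Ago3 on A_52_P556266 at 40 days, which was at 0.26 without normalization within arrays and at 0.29 from processed signals. With 1 array left out, 376 of 392 of these values kept the call and 16 lost it, all at 40 days, for Eif3c, Eif4b, Eef2k and Ago3. The other calls, with larger p, were not followed singly. The counts above also fell at 80 days when some arrays were left out. Without normalization within arrays the calls of Eef2 on A_52_P605455 and of Eif5b at 80 days were lost, at changes of 0.10 and -0.13, and that of Eif5 at 80 days was lost from the cord channel alone and in the authors' processed table, at -0.18 and -0.17. Of 30 uncalled genotype changes of the probes of Eef2, Eif5b, Eif3s1, the eEF1A paralogs and the eIF2 gamma genes, 19 took the other sign in at least 1 setting. The threshold was passed by 8 of the 30 in at least 1 setting. The cause of these shifts was not tested. Signal over background kept 19 of the 136 probes out of every test, and changes of dim probes are shrunk by the offset.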
